A study of Mus musculus with 4 samples.

Results

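Ly6a, Ly6c1, Ly6d, Ly6e and Psca are genes for Ly6-type surface proteins, and 5 of the 22632 genes in the deposited expression table carry these symbols. All 5 reached 1 RPKM (reads per kilobase of gene, scaled to the size of the library) in at least 1 library. They were chosen by name with their levels and ratios in these same libraries already known, so their differences are given as descriptions. Ly6-type proteins are small, folded by disulfide bonds into the shape of three-finger toxins, and most hang on the outer cell membrane by a glycolipid (GPI) anchor. Several are classical surface antigens of mouse blood cells and are turned on by interferon, and Ly6a, better known as Sca-1, is also a marker of fetal-like and regenerating gut epithelium. The transcriptional co-activator YAP, restrained by the Hippo pathway, takes part in that regeneration.

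The RNA came from organoids of mouse small intestine, crypt epithelium grown as miniature gut in a gel, collected 24 hours after seeding. Yap-/- organoids came from Yapfl/fl;VillinCre mice, in which Cre driven by the gut epithelial Villin promoter deletes both copies of Yap. Yap+/- organoids came from Yap+/fl;VillinCre mice and keep 1 copy, so this control carries the same Cre and is not wild type. YapTg organoids carry a wild-type Yap transgene under a reverse tetracycline transactivator that depends on Cre, and were grown with doxycycline, at 1.5 mg/ml as the labels write it, or without it. The labels do not name the Cre used in the YapTg line, and no culture received the drug without the transgene, so effects of doxycycline and of Yap cannot be told apart. Each of the 4 groups is 1 library, so no difference has a replicate check and no p-value was computed.

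The library totals behind the values were 67716822 reads for Yap-/-, 56926423 for Yap+/-, 75269003 for YapTg with doxycycline and 44934170 for YapTg without. Yap1 stood at 3.35 RPKM in the Yap-/- library, against 16.7 RPKM in the Yap+/- library, and at 1039 RPKM with and 25.1 RPKM without doxycycline, in the direction of each label. The epithelial genes Epcam, Cdh1, Vil1, Cdx1, Cdx2, Krt8, Krt18, Krt19 and Krt20 were all at 41.9 RPKM or more in every library. Each level below has a 95% Poisson interval and each fold a 95% exact conditional binomial interval, both from the fewest whole reads that the deposited values allow. They cover counting error only, not variation between cultures. They can be too narrow even for that, since PCR copies are not independent molecules. In these whole cultures, more cells that use a gene and more RNA of that gene per cell cannot be told apart.

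With doxycycline, 4 of the 5 genes were at least 2-fold higher and Ly6d was not. The threshold was applied to the ratio of RPKM + 1 among genes that reached 1 RPKM in either library of the pair. Across all 11108 such genes 5.85% were higher by this rule and 5.8% lower. Without Yap, 3 of the 5 reached 1 RPKM in either library. Ly6a and Ly6d were at least 2-fold lower, Ly6e was not, and none was 2-fold higher, where 0.57% of all 10710 genes were lower and 0.336% higher. Both contrasts were among the values on which the genes were selected, so nothing is read from these counts.

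**Figure D1:**
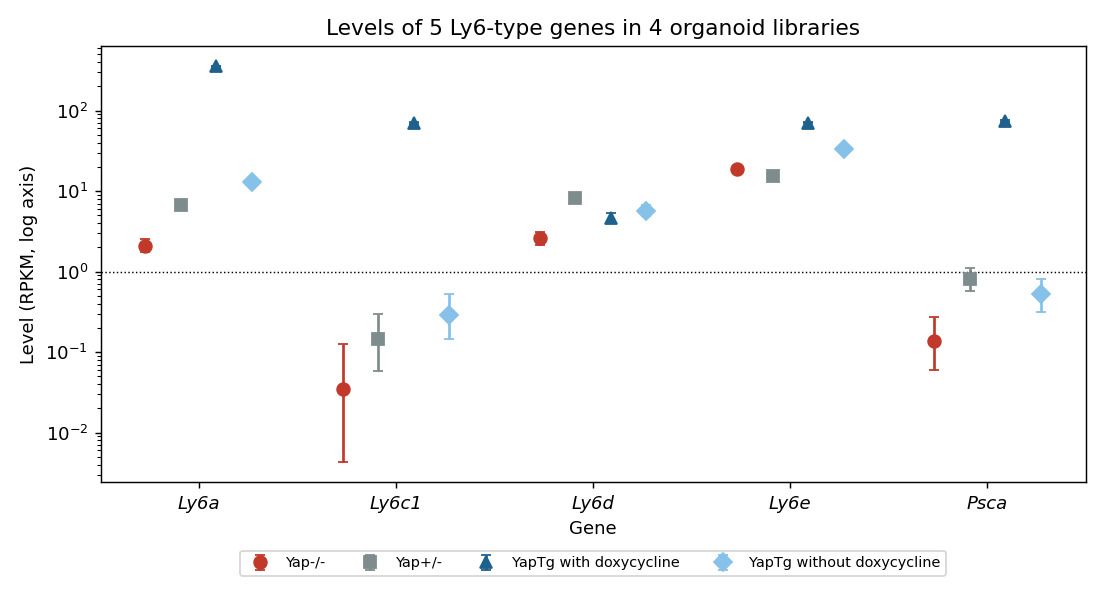
Level of each gene in RPKM on a log axis in the 4 libraries, 1 point per library, with 95% Poisson counting intervals and a dotted line at 1 RPKM. Ly6a, Ly6c1, Ly6e and Psca stand highest in the YapTg library with doxycycline, and Ly6d is highest in Yap+/- and lowest in Yap-/- organoids.

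Ly6a was at 356 RPKM with doxycycline, against 13.0 RPKM without, and at 2.09 RPKM in Yap-/- organoids, against 6.67 RPKM in Yap+/- organoids. The order of the libraries was thus Yap-/-, Yap+/-, YapTg without and YapTg with doxycycline, and no pair of counting intervals overlapped. With doxycycline Ly6a was 27.5-fold higher (95% interval 25.1 to 30.1). It was 13th from the top among 11108 genes by log2 ratio of RPKM + 1. In level, 63 genes stood above it in the induced library, against 3871 in the uninduced one. Without Yap it was 3.19-fold lower (95% interval 2.57 to 3.98) and 28th from the bottom among 10710 genes. At a pseudocount of 5 the log2 ratio without Yap was -0.72, short of 2-fold. Ly6a was also 1.94-fold lower in Yap+/- than in uninduced YapTg organoids (95% interval 1.68 to 2.25). That pair differs in line and genotype but has neither full loss nor induction of Yap.

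Ly6c1 encodes an antigen of monocytes, some T cells and endothelium in the mouse. It was at 71.0 RPKM with doxycycline, against 0.291 RPKM without, and at 0.0352 RPKM in Yap-/- organoids, against 0.146 RPKM in Yap+/- organoids. The fewest reads these values allow are 2 in Yap-/-, 7 in Yap+/-, 4487 in induced YapTg and 11 in uninduced YapTg organoids. With doxycycline the gene was 244-fold higher (95% interval 136 to 488). By log2 ratio it was 2nd from the top of the 11108 genes. The ratio of Yap-/- to Yap+/- organoids, 0.240, has an interval of 0.0243 to 1.26, so a difference was not detectable at that depth.

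The stretches upstream of Ly6c1 and of its relatives Ly6c2, Ly6g and Ly6f, whose levels are given further on, are shown because these genes were near 0 in 3 libraries and highest with doxycycline. RefSeq promoter entries of GRCm38.p6 matched 1 of the 5 genes, Ly6c1, and none was matched for Ly6a, Ly6d, Ly6e and Psca. Each line gives the 250 bases before the start that lies furthest upstream, 5′ to 3′ on the strand of the gene. Capitals mark the longest run found in all 4. The Ly6c1 stretch is chr15:75048838-75049087 on the minus strand, that of Ly6c2 chr15:75111972-75112221 on the minus strand, that of Ly6g chr15:75155011-75155260 on the plus strand and that of Ly6f chr15:75268171-75268420 on the plus strand.
Ly6c1: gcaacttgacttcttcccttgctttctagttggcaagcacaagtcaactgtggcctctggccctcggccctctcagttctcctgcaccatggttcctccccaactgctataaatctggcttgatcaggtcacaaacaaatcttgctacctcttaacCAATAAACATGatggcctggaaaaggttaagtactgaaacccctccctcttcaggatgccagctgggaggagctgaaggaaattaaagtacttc
Ly6c2: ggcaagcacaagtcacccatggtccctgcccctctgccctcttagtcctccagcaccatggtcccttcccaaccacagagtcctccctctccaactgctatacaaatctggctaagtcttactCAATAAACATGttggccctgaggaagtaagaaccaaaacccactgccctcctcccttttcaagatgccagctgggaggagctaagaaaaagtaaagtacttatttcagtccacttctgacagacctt
Ly6g: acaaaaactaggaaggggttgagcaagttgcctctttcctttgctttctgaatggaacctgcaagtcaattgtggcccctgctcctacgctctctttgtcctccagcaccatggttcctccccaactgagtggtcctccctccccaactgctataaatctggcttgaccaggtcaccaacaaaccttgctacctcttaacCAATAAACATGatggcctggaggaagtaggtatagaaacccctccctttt
Ly6f: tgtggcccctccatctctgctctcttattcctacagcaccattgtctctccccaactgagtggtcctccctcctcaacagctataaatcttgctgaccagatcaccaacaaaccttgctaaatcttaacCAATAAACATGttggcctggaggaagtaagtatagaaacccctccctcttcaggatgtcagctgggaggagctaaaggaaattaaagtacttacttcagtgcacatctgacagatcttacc

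The 4 stretches were alike. In pairwise alignments the aligned bases were 88.3% identical between Ly6c1 and Ly6f, 85.8% between Ly6c1 and Ly6g and 81.0% between Ly6c1 and Ly6c2. The run CAATAAACATG, of 11 bases, stood in all 4 and in 14 of 32851 RefSeq promoter stretches of the same length (0.0426%), second entries for Ly6c2 and Ly6g included. On both strands the letters GGAATG, as in TEAD sites, were in none of the 4 and in 12.6% of all stretches. The letters GAAANNGAA, as in interferon-stimulated response elements, were in none of the 4 and in 7.13% of all. TGANTCA, bound by AP-1, was in none of the 4 either and in 6.75% of all. The letters TTCNNNGAA, as in interferon gamma-activated sites, were in none of the 4 and in 7.02% of all. Since the 4 stretches were alike, they are not 4 separate observations. These are counts of letters in short windows and say nothing of whether the factors act on these genes.

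Psca, the prostate stem cell antigen gene, is best known from the epithelium of stomach, bladder and prostate. It was at 74.2 RPKM with doxycycline, against 0.521 RPKM without, and at 0.138 RPKM in Yap-/- organoids, against 0.802 RPKM in Yap+/- organoids. The fewest reads these values allow are 8 in Yap-/- and 39 in Yap+/- organoids, and 20 without doxycycline. Psca was 142-fold higher with doxycycline (95% interval 92.1 to 233), 3rd from the top of all genes. Without Yap it was 5.80-fold lower (95% interval 2.67 to 14.4), but neither library of that pair reached 1 RPKM and the 2-fold rule did not apply. The Yap+/- and uninduced YapTg libraries had overlapping intervals of 0.570 to 1.10 and 0.318 to 0.805 RPKM.

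Ly6e encodes an interferon-induced antigen that serves in mouse placenta as the receptor for syncytin-A and that restricts the entry of some viruses. It was at 70.8 RPKM with doxycycline, against 33.8 RPKM without, and at 18.7 RPKM in Yap-/- organoids, against 15.3 RPKM in Yap+/- organoids. Ly6e was thus expressed in every library, and both YapTg libraries stood above both others. With doxycycline it was 2.10-fold higher (95% interval 2.02 to 2.18), past 2-fold by little: with a pseudocount of 5 the log2 ratio was 0.97. The Yap+/- library was 2.20-fold lower than the uninduced YapTg library (95% interval 2.08 to 2.33). The gap between those libraries was thus of similar size to the gap with doxycycline, and both use the same uninduced library. Ly6e was the only one of the 5 past 2-fold between the Yap+/- and uninduced YapTg libraries, where 0.726% of 10883 genes were lower and 1.11% higher. That difference was short of 2-fold after median-ratio scaling, at -0.94 on the log2 scale, and after upper-quartile scaling, at -0.99. Without Yap it was 1.22-fold higher (95% interval 1.15 to 1.29).

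Ly6d, an antigen of early B lineage cells and of stratified epithelium in the mouse, had another pattern. It was at 4.69 RPKM with doxycycline, against 5.73 RPKM without, and at 2.59 RPKM in Yap-/- organoids, against 8.31 RPKM in Yap+/- organoids. Its Yap-/- value was the lowest of the 4 libraries and its Yap+/- value the highest. Without Yap it was 3.21-fold lower (95% interval 2.60 to 3.99), 24th from the bottom of 10710 genes, with a log2 ratio of -0.81 at a pseudocount of 5, short of 2-fold. With doxycycline the ratio was 0.818 (95% interval 0.672 to 0.998), and the difference was under 2-fold. Yap+/- organoids had 1.45-fold more than uninduced YapTg organoids (95% interval 1.20 to 1.75).

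**Figure D2:**
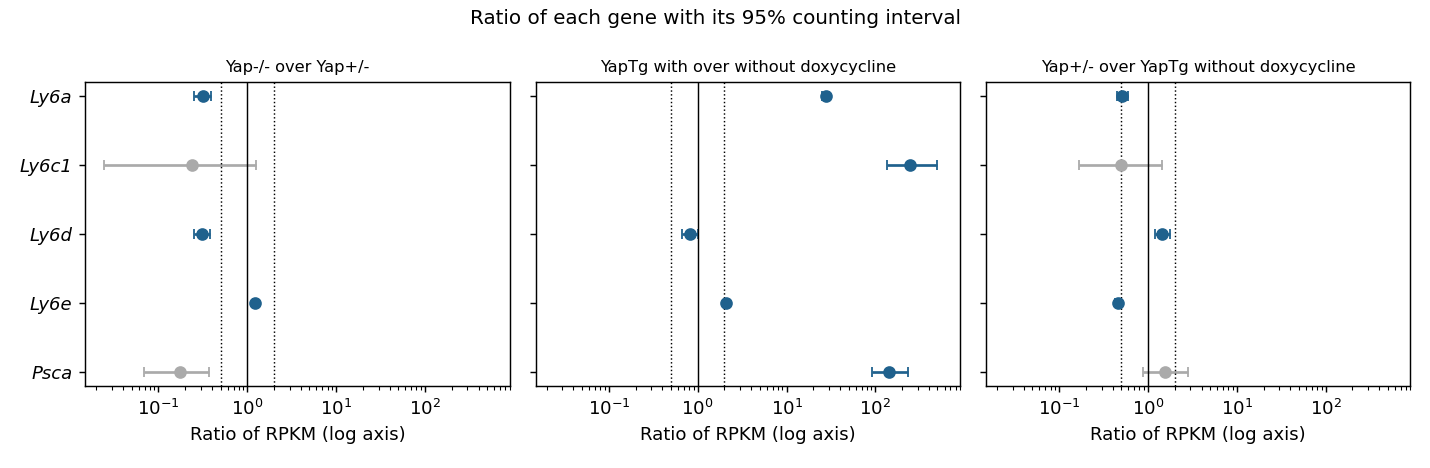
Ratio of RPKM for each gene on a log axis in 3 pairs of libraries, with 95% counting intervals, a solid line at 1 and dotted lines at 0.5 and 2. Grey points mark genes below 1 RPKM in both libraries of the pair. With doxycycline Ly6c1, Psca and Ly6a lie far to the right at 244, 142 and 27.5, and without Yap Ly6a and Ly6d lie left of 0.5.

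Within a library, the levels could be set in order because RPKM is scaled by gene length. In Yap-/- organoids the order was Ly6e, Ly6d, Ly6a, Psca and Ly6c1, with overlapping counting intervals for Ly6d and Ly6a and for Psca and Ly6c1. Yap+/- organoids had the same order, with Ly6d and Ly6a again overlapping. With doxycycline Ly6a led, followed by Psca, Ly6c1 and Ly6e between 70.8 and 74.2 RPKM and by Ly6d. The intervals of Psca and Ly6c1 overlapped, as did those of Ly6c1 and Ly6e. Without doxycycline the order was Ly6e, Ly6a, Ly6d, Psca and Ly6c1, with an overlap only between Psca and Ly6c1. Summed over the 5 genes the level was 23.6 RPKM in Yap-/-, against 31.3 RPKM in Yap+/- organoids, and 577 RPKM with and 53.3 RPKM without doxycycline. Ly6e made up 79.4% of that sum in Yap-/- and 49.0% in Yap+/- organoids, and 12.3% with and 63.4% without doxycycline.

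Ly6 genes arose by duplication, and near copies can share reads. In GENCODE M21 transcripts, 32.8% of all 50-base stretches of Ly6c1 also stand in another gene, most often Ly6c2 (21.5%) and Ly6a (11.1%). Of Ly6a, 19.0% of such stretches stand elsewhere, most of them in Ly6c1. Ly6d, Ly6e and Psca had 0 shared stretches of 50 bases. With stretches of 100 bases the shares were 10.1% for Ly6c1 and 1.45% for Ly6a. Some relatives described further on share sequence too. At 50 bases the shares were 14.5% for Ly6c2, 5.32% for Ly6m, 4.76% for Ly6i and 0.448% for Ly6g. At 36 bases they were 20.9%, 9.79%, 15.1% and 6.51%, so their values carry the same limit. Neither the read length nor the handling of reads with several matches is given in the sources used here, so values of Ly6a, Ly6c1 and Ly6c2 are less certain than those of Ly6d, Ly6e and Psca. The level of Ly6c1 was 1.68% of that of Ly6a in Yap-/- organoids and 2.19% in Yap+/- organoids. It was 19.9% with doxycycline and 2.25% without. The 2 genes were therefore not in 1 ratio in all libraries. Outside the induced library the ratios rest on as few as 2, 7 and 11 Ly6c1 reads. The part of shared reads in these values was not tested. With Ly6a, Ly6c1 and their relatives Ly6c2, Ly6f, Ly6g and Ly6i summed to 1 value beside Ly6d, Ly6e and Psca, 3 values were at least 2-fold higher with doxycycline.

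Besides these genes, 35 relatives of the Ly6 and urokinase receptor (uPAR) family were found in the table, of 41 listed, and 12 of the 35 reached 1 RPKM in any library. The list was drawn up with earlier results of these libraries known. In the YapTg pair 10 relatives reached 1 RPKM, 5 were at least 2-fold higher and 1 was lower, against 5.85% and 5.8% of all genes. In the Yap-/- and Yap+/- pair 7 reached it, 1 was at least 2-fold lower and 0 were higher, against 0.57% and 0.336% of all genes. Among the relatives at 1 RPKM the median log2 ratio of RPKM + 1 was 1.00 with doxycycline and -0.04 without Yap. Over all 35 it was 0 in both pairs. Most of the 35 were below 1 RPKM and 8 were at 0 in every library, so nothing is read from that 0. Ly6c2, Ly6f, Ly6g, Lynx1 and Ly6m reached 1 RPKM in the YapTg pair only through the induced library. The count and the median among the 10 are therefore descriptions and lend no support.

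Several relatives that lie near Ly6a and Ly6c1 in the genome had little RNA outside the induced library. Ly6g, whose product marks neutrophils, was at 19.3 RPKM with doxycycline and 0.132 RPKM without, and was listed at 0 in Yap-/- and Yap+/- organoids. Its ratio with doxycycline was 146 (95% interval 25.9 to 5777), since the uninduced value can rest on as few as 1 read. Ly6c2, the near copy of Ly6c1, was at 12.1 RPKM with and 0.112 RPKM without doxycycline, and at 0.0371 RPKM in Yap-/-, against 0.0883 RPKM in Yap+/- organoids. Its ratio with doxycycline was 108 (95% interval 29.7 to 896). Ly6f was at 2.70 RPKM with and 0.0508 RPKM without doxycycline, a ratio of 53.1 (95% interval 14.5 to 442). Without doxycycline the fewest reads these values allow are 1 or 2, so the ratios are imprecise at that depth. Ly6i, next to Ly6a, was at 0.0151 RPKM in the induced library and listed at 0 in the other 3.

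Plaur, which encodes the urokinase receptor with its repeated Ly6-type domains, was different in both pairs. It was at 85.8 RPKM with and 7.25 RPKM without doxycycline, 11.8-fold higher (95% interval 10.8 to 13.0). In Yap-/- organoids it was at 1.88 RPKM, against 10.5 RPKM in the Yap+/- library. Without Yap it was thus 5.57-fold lower (95% interval 4.73 to 6.58). Its libraries stood in the same order as those of Psca, with Yap+/- above uninduced YapTg organoids. Lynx1, which encodes a modulator of nicotinic receptors, was at 1.78 RPKM with and 0.321 RPKM without doxycycline.

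Ly6m was near the threshold in both pairs. It was at 2.35 RPKM with and 0.755 RPKM without doxycycline, 3.12-fold higher (95% interval 2.38 to 4.14). In Yap-/- organoids it was at 0.110 RPKM, against 1.19 RPKM in the Yap+/- library. That was 10.9-fold lower (95% interval 6.25 to 20.5). On the log2 scale of RPKM + 1 these were 0.93 and -0.98, just short of 2-fold, and a pseudocount of 0.1 put both past it.

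Lypd8 was the relative with the highest level and differed in the other direction. Its product, shed by gut epithelium, binds flagella of bacteria. It was at 243 RPKM with and 588 RPKM without doxycycline, 2.42-fold lower (95% interval 2.38 to 2.46), and at 569 RPKM in Yap-/-, against 540 RPKM in Yap+/- organoids. The other relatives that reached 1 RPKM did not pass 2-fold in either pair on the scale of RPKM + 1. Lypd1 was between 2.16 and 3.17 RPKM in the 4 libraries and Spaca4 was at 5.51 RPKM or more in each. Ly6g6c was at 0.664 RPKM with and 1.37 RPKM without doxycycline, 2.06-fold lower (95% interval 1.38 to 3.08). Its log2 ratio of RPKM + 1 was -0.51, short of 2-fold. Ly6g6d and Ly6g6e were at 1.05 and 1.21 RPKM in Yap-/- organoids and at 1.10 RPKM each in Yap+/- organoids, and were under 0.5 RPKM in both YapTg libraries.

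**Figure D3:**
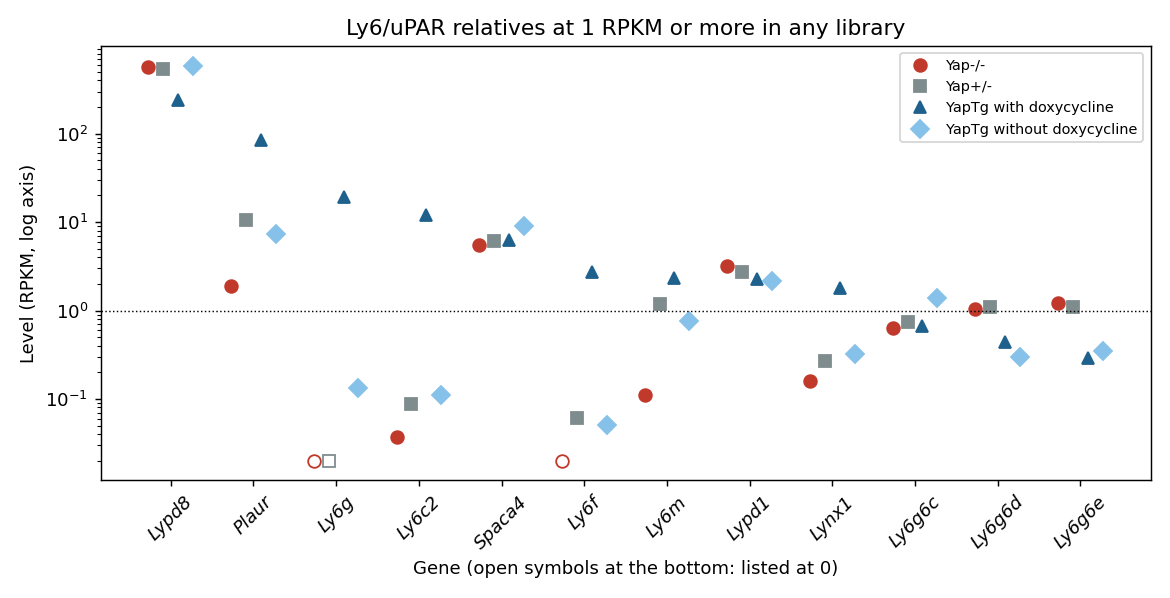
Level in RPKM on a log axis of the 12 Ly6/uPAR relatives that reached 1 RPKM in any library, 1 symbol per library, with open symbols for values listed at 0. Plaur, Ly6g, Ly6c2 and Ly6f stand highest with doxycycline, and Lypd8 stands lowest there.

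Psca, Ly6d, Ly6e, Ly6a and Ly6c1 lie in 1 cluster of genes on chromosome 15. In the order of the GRCm38 annotation the table holds 24 genes from Psca to Ly6h, a stretch chosen after the values were seen, of which 18 are Ly6-type. With doxycycline 10 of the 18 reached 1 RPKM and 8 were at least 2-fold higher, with Ly6d and Ly6m short of it. Of all genes 5.85% were higher. Most of the 10, namely Psca, Lynx1, Ly6m, Ly6c1, Ly6c2, Ly6g and Ly6f, reached 1 RPKM only through the induced library. The count among the 10 is therefore a description and lends no support. Ly6a, Ly6c1, Ly6c2 and Ly6g follow each other without another gene of the table between them, and all 4 were higher. Psca stands at the other end of the cluster, and of the Ly6-type genes between it and Ly6m, Slurp1, Lypd2, Slurp2, Ly6k, Gml and Gml2 were below 1 RPKM in every library. In the same stretch lie Lynx1 and Them6, which were at least 2-fold higher with doxycycline, and Ly6d, which was not. In Yap-/- against Yap+/- organoids 4 of the 18 reached 1 RPKM, and Ly6a and Ly6d were at least 2-fold lower. Of all genes 0.57% were lower.

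**Figure D4:**
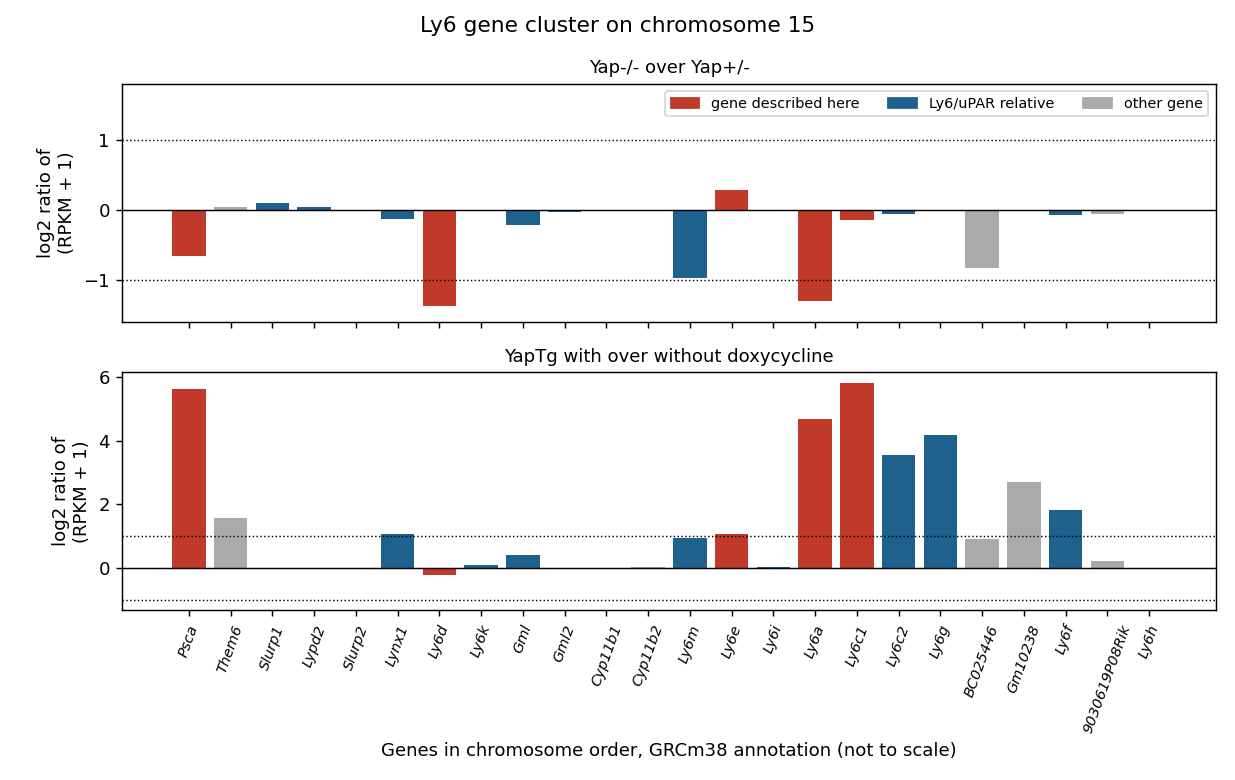
Log2 ratio of RPKM + 1 for 24 genes of the cluster on chromosome 15 in annotation order, not to scale, without Yap in the upper panel and with doxycycline in the lower panel, with dotted lines at 2-fold. The bars for Ly6a, Ly6c1, Ly6c2 and Ly6g stand side by side above 3 with doxycycline, and Ly6d, between Lynx1 and Ly6k, lies below 0 in both panels.

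Many interferon response genes were higher in the same library. Of 20 listed, 18 reached 1 RPKM in the YapTg pair and 11 were at least 2-fold higher with doxycycline, against 5.85% of all genes. The median log2 ratio was 1.37 among the 18 and 1.21 over all 20. Several of the 18 reached 1 RPKM only through the induced library, so these values are descriptions. Isg15, which encodes a ubiquitin-like modifier, was at 49.0 RPKM with and 1.97 RPKM without doxycycline, and the antiviral synthetase-like gene Oasl2 at 19.1 and 1.78 RPKM. Irf1 was at 10.2 RPKM with and 14.5 RPKM without the drug. Summed, the list was at 244 RPKM with and 72.5 RPKM without doxycycline, and at 66.9 RPKM in Yap-/-, against 60.8 RPKM in Yap+/- organoids. Without Yap 0 of 13 were past 2-fold, with a median of 0.15, where 0.57% of all genes were lower and 0.336% higher. The part of the interferon response in the levels of the Ly6 genes was not tested.

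Genes that build and attach GPI anchors were mostly under 2-fold in both pairs, as were most genes of the table. Of 31 entries for 29 listed genes, 30 reached 1 RPKM in the YapTg pair. Of these 1 was at least 2-fold higher with doxycycline, a Pgap1 entry at 49.6 RPKM with and 17.9 RPKM without. Pgap1 is an enzyme that remodels the lipid of new anchors, and its second entry in the table was at 17.6 RPKM with and 8.93 RPKM without, under 2-fold. Pgap2, another remodelling factor, was at 12.9 and 6.34 RPKM. The median log2 ratio was -0.19 with doxycycline and 0.08 without Yap, where 0 of 30 passed 2-fold. Of all genes, 5.85% were higher and 5.8% lower with doxycycline, and 0.336% higher and 0.57% lower without Yap. Nothing is read from the counts in this list.

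Markers of other cell types that carry Ly6 antigens were mostly low, and their part in the Ly6 levels was not tested. Immune markers summed to 4.18 RPKM with and 5.21 RPKM without doxycycline over 10 genes, and to 3.51 RPKM in Yap-/-, against 2.98 RPKM in Yap+/- organoids, with Csf1r the highest at 1.99 RPKM with doxycycline, against 1.17 RPKM without. Lyz2 was at 0.557 RPKM with and 1.25 RPKM without. Endothelial markers summed to at most 0.233 RPKM in any library, with Cdh5 and Emcn at 0 in all 4. Stromal markers summed to 0.435 RPKM with and 2.28 RPKM without doxycycline, nearly all from Vim at 0.381 and 2.26 RPKM, with Col3a1 at 0 throughout. In Yap-/- organoids they summed to 3.46 RPKM, against 3.42 RPKM in the Yap+/- library. Of 4 gastric pit markers none reached 1 RPKM and Tff1 was at 0 in all libraries, and their sum was 0.0108 RPKM with and 1.21 RPKM without doxycycline. It was 0.0481 RPKM in Yap-/- organoids, against 0.0429 RPKM in the Yap+/- library. Of 8 squamous and urothelial markers 2 did, Krt14 at 47.8 RPKM with and 15.6 RPKM without doxycycline and Upk1b at 1.10 and 1.23 RPKM. That list summed to 49.6 RPKM with and 17.5 RPKM without the drug, and to 14.2 RPKM in Yap-/- organoids, against 20.8 RPKM in the Yap+/- library. Among epithelial markers Krt18 was at 1352 RPKM with and 261 RPKM without the drug, and Krt19 at 2011 and 676 RPKM. Of the 9 in that list 3 were at least 2-fold higher and 1 lower, against 5.85% and 5.8% of all genes. The 3 were Krt8, Krt18 and Krt19, and the 1 was Cdx1, at 41.9 RPKM with and 89.2 RPKM without doxycycline. By any amount 6 were higher and 3 lower. The lower ones included Epcam, at 335 RPKM with and 372 RPKM without, and Vil1, at 208 and 222 RPKM. The sum was 6385 RPKM with and 2629 RPKM without doxycycline, most of it from Krt8, Krt18 and Krt19 in both libraries. In Yap-/- organoids the sum was 2556 RPKM, against 2979 RPKM in the Yap+/- library.

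The genes with the most similar profile were sought by the distance between centred log2(RPKM + 1) values over the 4 libraries. They were sought among 7400 genes at 5 RPKM or more in any library, leaving out Gm and Rik symbols. This also left out known genes that the table holds under older Rik symbols, among them Lypd8 and Them6. Nearest to Ly6a were Msln (distance 0.72), Yap1 itself (0.77) and Jub (1.14). For Ly6c1 they were Serpinb9b (0.20), P2rx2 (0.30) and Psca (0.46). Psca had Serpinb9b (0.30), P2rx2 (0.41) and Ly6c1 (0.46). Ly6e was nearest to Tns4 (0.13), Cdk6 (0.21) and Fgfr4 (0.22), and Ly6d to Rps18 (0.24), Slc40a1 (0.28) and Chst4 (0.40). With only 4 points per profile many genes can lie close, and the distances are descriptions.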

How the data were processed

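The deposited table gives 1 value per gene and library. RPKM was identified as the unit of the deposited values from the values themselves, since the header names none, and all 4 columns were used (0 left unused). Per the submitters' processing notes, CASAVA 1.8, FastQC and TopHat 1.4.1 were used with the mm9 build. The read counter, annotation release, strand setting and treatment of reads with several matches were not given in the sources used here.

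To form log2 ratios, a pseudocount of 1 was added to every RPKM, so differences of low genes come out too small. Folds were formed without the pseudocount. A gene counted as 2-fold different on that log2 scale when the higher library reached 1 RPKM.

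Low values stand at whole multiples of what 1 read is worth. Library totals were solved from these steps with GENCODE M21 gene lengths. For each gene the shortest length from 50 to 30000 bases that makes its reads whole in all 4 libraries, within 0.001, then gave the fewest reads possible. Of 17378 genes above 0, 17375 had such a length. Multiples of it also fit, so true read numbers can be larger and intervals narrower. For each pair of libraries, 95% intervals of a ratio are Clopper-Pearson intervals of the share of reads. A ratio was left out where neither library had more than 3 reads.

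The 5 genes and all lists were chosen with earlier results of these data known. Relatives were named when at 1 RPKM in any library. Of each other list the 2 members furthest from 0 with doxycycline were named, and 3 nearest genes per profile. Irf1, Cdh5, Emcn, Col3a1, Ly6i and, for their ratios, Krt8, Cdx1, Epcam and Vil1 were named after their values were seen. Symbols newer than the table were matched by Ensembl identifier or RefSeq synonym. Python 3.11.15, numpy 2.4.6, pandas 2.3.3, scipy 1.17.1 and Biopython 1.88 were used. Alternatives changed the pseudocount (0.1, 5), the RPKM floor (none, 5), the scaling (upper-quartile, median-ratio) or the threshold (4-fold, or a counting interval that excludes 1), or summed Ly6a, Ly6c1 and 4 relatives.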

Additional observations from a re-analysis of the deposited data

How the results depend on the processing

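No paired analysis was possible because each group is 1 library, and no library could be left out. With doxycycline the 4 higher genes were 3 with a pseudocount of 5 and at 4-fold, where Ly6e fell short. They were 4 under the other alternatives that kept the 5 genes apart. By counting interval Ly6d also counted, as lower, which made 5. With relatives summed, 3 values were higher, namely the sum, Ly6e and Psca, because Ly6a and Ly6c1 then counted as 1. Without Yap, the 2 genes past 2-fold became 0 with a pseudocount of 5 and 0 with a 4-fold threshold. By counting interval they became 3 (1 higher and 2 lower). Between Yap+/- and uninduced YapTg organoids the 1 gene, Ly6e, became 0 with a pseudocount of 5, with either scaling and at 4-fold, and 3 genes had counting intervals that exclude 1. Median-ratio scaling moved the median log2 ratio of all genes in that pair by 0.13 and made the split 173 higher and 60 lower, against 121 and 79 as deposited. Of the relatives, the 1 past 2-fold without Yap became 2 with a pseudocount of 0.1 or either scaling, 0 at 4-fold and 4 by counting interval. The 6 with doxycycline became 3 at 4-fold, 4 with a pseudocount of 5 or a floor of 5 RPKM, 7 with a pseudocount of 0.1 and 9 by counting interval (6 higher and 3 lower). The 0 between Yap+/- and uninduced YapTg organoids became 2 with a pseudocount of 0.1 and 8 by counting interval. A counting interval that excludes 1 is common at this depth: it held for 38.6% of genes upward and 15.7% downward without Yap. With doxycycline it held for 36.5% upward and 44.9% downward. For Yap+/- over uninduced YapTg organoids it held for 23.0% upward and 51.4% downward. Of 60 log2 ratios of single genes under another pseudocount or scaling, 12 shifted by more than the distance from the reported fold to the bound of its counting interval on that side (log2), 48 by less, and 0 changed sign. Where these counts moved, the cause was not tested. The 3 nearest genes of each profile were also the nearest after median-ratio scaling. The depth limits Ly6c1, Psca, Ly6c2, Ly6f and Ly6g outside the induced library, where the fewest reads their values allow are 39 or less.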

Other observations

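Of the 24 genes in the cluster on chromosome 15, 6 are not on the list of Ly6-type genes, and 3 of these reached 1 RPKM in the YapTg pair. The thioesterase family gene Them6, next to Psca, was at 15.5 RPKM with and 4.52 RPKM without doxycycline, and at 3.53 RPKM in Yap-/-, against 3.44 RPKM in Yap+/- organoids. The predicted gene Gm10238, between Ly6g and Ly6f, was at 6.21 RPKM with and 0.125 RPKM without doxycycline and was listed at 0 in the other libraries. BC025446, beside it, was at 18.8 RPKM with and 9.62 RPKM without doxycycline, and at 7.19 RPKM in Yap-/-, against 13.6 RPKM in Yap+/- organoids. Lypd5 had 69 reads or more with doxycycline and 0 without, at least 13.7-fold higher against a floor of 3 reads. These genes were named after their values were seen.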
